A study of Homo sapiens with 6 samples.

Results

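The 7 genes described here are the inhibitors of DNA binding ID1, ID2, ID3 and ID4, the inhibitory SMADs SMAD6 and SMAD7, and the pseudoreceptor BAMBI. They are 7 of the 19775 genes with a probe set of their own on the array, and the platform annotation assigned 15 probe sets to 1 of them alone. The group was selected on the DOX changes measured in these same arrays, so the DOX changes of its members are given below as a description, without a test. RNA came from A549, a human lung adenocarcinoma line labelled as non-small cell lung cancer, into which tetracycline-inducible short hairpins had been introduced by lentivirus. There were 2 lines with hairpins against CNOT3 (shCNOT3-1 and shCNOT3-2), a subunit of the CCR4-NOT deadenylase, and 1 line with a non-targeting hairpin (shNTC). Each line was cultured with doxycycline (DOX, 1 ug/ml for 72 hours) and without it in serum-containing medium, and 1 array was run per culture, so each group held 1 or 2 arrays. All cultures, controls included, carried a hairpin vector, and the labels do not say whether a line was a single clone.

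Bone morphogenetic proteins (BMPs) are secreted ligands that bind paired serine/threonine kinase receptors, which phosphorylate SMAD1, SMAD5 and SMAD9. These move to the nucleus with SMAD4 and switch on a small set of direct targets, of which the ID genes are the best known. ID proteins have a helix-loop-helix but no basic region, so they pair with E proteins such as TCF3 and TCF12 and keep them off DNA. SMAD6, SMAD7 and BAMBI are induced by the pathway and act back on it. SMAD6 acts mainly on BMP receptors and SMADs, SMAD7 on the receptors of both BMP and TGF-beta, and BAMBI resembles a receptor without a kinase domain. In lung tumour cells ID1 and ID3 have been studied in growth and invasion.

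Values are probe set intensity on the linear scale deposited by the authors, and DOX changes are log2((DOX + 1) / (no DOX + 1)) within a line. A gene is represented by its brightest probe set unless stated. CNOT3 itself had an intensity of 81.9 with and 227 without DOX in shCNOT3-1, 46.9 and 228 in shCNOT3-2, and 166 and 178 in shNTC, so its signal was low in both knockdown cultures, at 36.4% and 20.9% of the level without DOX. All 6 arrays had the same trimmed mean, 500.1, and medians of 64.9 to 72.8. The brightest epithelial markers were KRT18, at 42729 to 52581, and KRT8, at 30881 to 42145, whereas EPCAM read only 132 to 372. For KRT19 the log2 DOX changes were 1.13 in shCNOT3-1, 0.45 in shCNOT3-2 and 0.38 in shNTC. In the same order they were -0.47, -0.37 and 0.76 for EPCAM, 0.55, -0.36 and 0.34 for CDH1, and 0.06, 0.145 and 0.12 for KRT18. Summed over the 6 epithelial markers, mostly KRT8 and KRT18, intensity was 99567 and 112023 in the knockdown cultures, against 100640 to 109292 on the other arrays. The 4 leukocyte markers summed to 300 and 387 there and to 273 to 312 elsewhere, the 6 fibroblast markers to 591 and 778 against 527 to 650, and the 4 endothelial markers to 258 and 297 against 167 to 413. Leukocyte PTPRC did not exceed 38.0 and endothelial CDH5 did not exceed 17.3 on any array. Leukocyte CD14, at 144 to 265, and endothelial PECAM1, at 107 to 277, were brighter. The log2 DOX changes of CD14 were 0.50 in shCNOT3-1, -0.67 in shCNOT3-2 and 0.10 in shNTC. Those of PECAM1 were 0.66, 0.93 and -0.29, and its dimmer probe sets gave -1.84 to 1.29 as the mean of the hairpins. The part of these shifts in the results below was not tested. In bulk RNA fewer cells of a type and less RNA per cell cannot be told apart.

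ID3 and ID1 were higher in both CNOT3 knockdown cultures than on every other array. For ID3 the intensity was 16331 with DOX and 7676 without it in shCNOT3-1, and 15623 with DOX and 6598 without it in shCNOT3-2. In shNTC it was 7536 with DOX and 6189 without it. The 2 knockdown arrays thus stood together above the 4 others, whose highest value was the uninduced shCNOT3-1 culture. ID3 was 2.13-fold and 2.37-fold higher with DOX in shCNOT3-1 and shCNOT3-2, against 1.22-fold in shNTC. Averaged over the hairpins, the log2 change was 1.17 ± 0.11 (SD, n = 2), and it was 0.28 in shNTC. The 3 uninduced lines spanned only 1.24-fold for this gene.

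For ID1 the intensity was 28729 with and 16128 without DOX in shCNOT3-1, and 22449 with and 14717 without DOX in shCNOT3-2. In shNTC it was 16899 with and 16889 without. The control line therefore gave the same reading in both states, and the knockdown arrays were again the 2 highest. ID1 was 1.78-fold higher in shCNOT3-1 and 1.53-fold higher in shCNOT3-2, or 0.72 ± 0.16 on the log2 scale (SD, n = 2), against 1.00-fold in shNTC, and the uninduced lines spanned 1.15-fold. The log2 change of ID1 was larger in shCNOT3-1, at 0.83, than in shCNOT3-2, at 0.61, whereas that of ID3 was 1.09 in shCNOT3-1 and 1.24 in shCNOT3-2. Both ID1 and ID3 were read from a single probe set each.

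**Figure D1:**
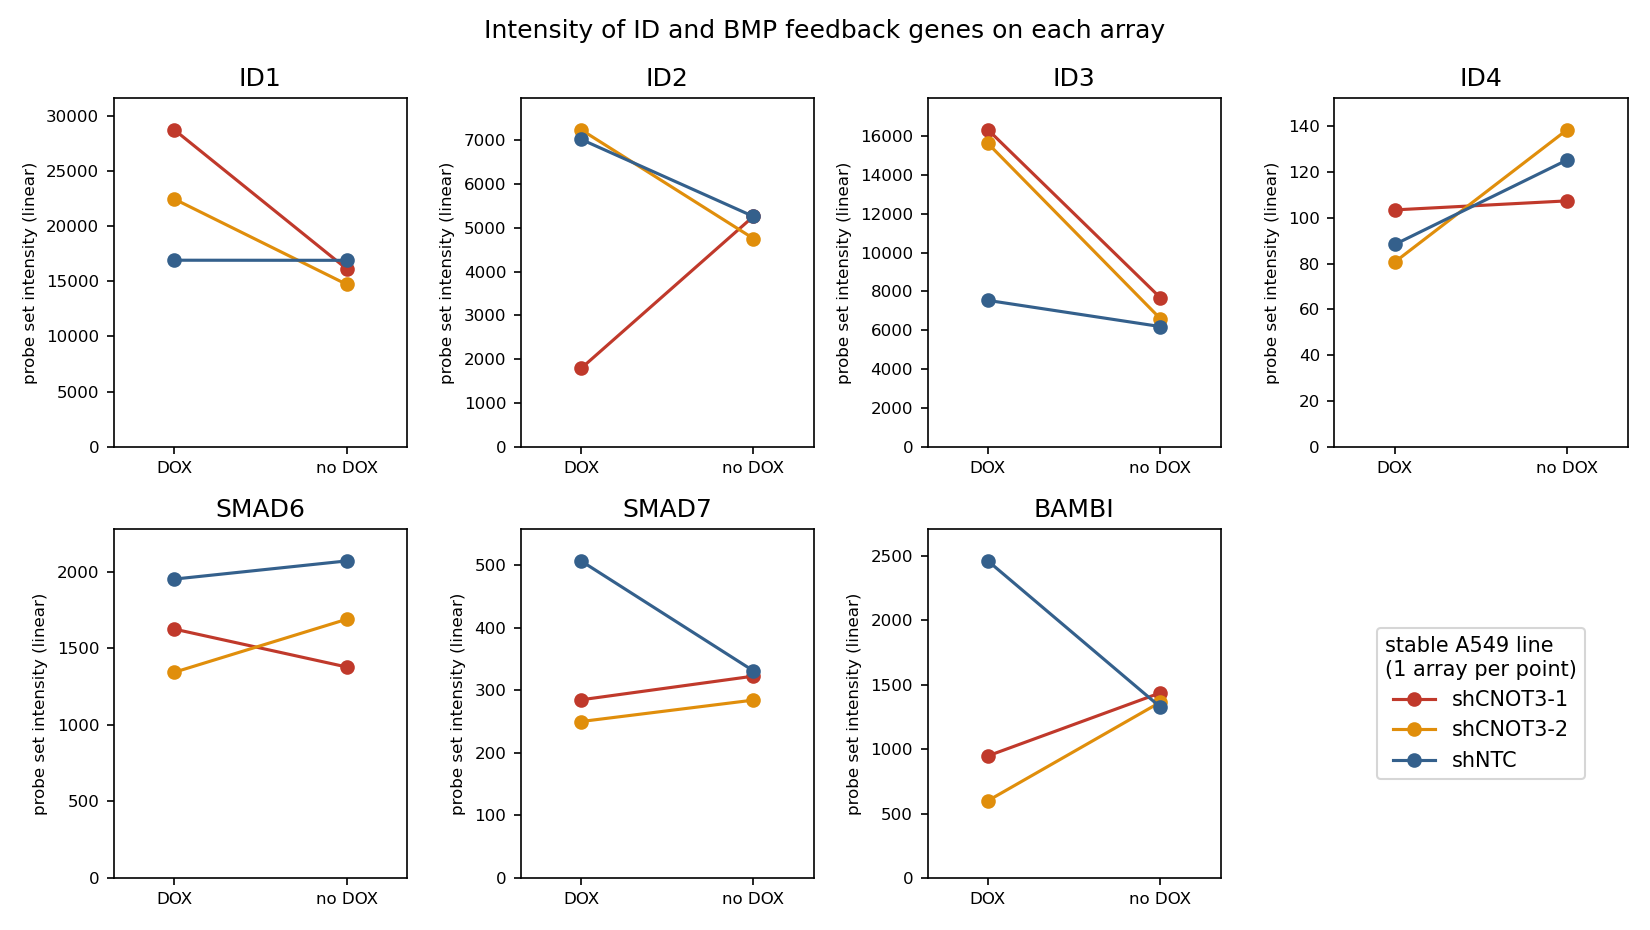
Probe set intensity (linear axis from 0) of the brightest probe set of each of the 7 genes, with DOX on the left and without DOX on the right; each point is 1 array and each line joins the 2 cultures of a stable line. ID1 and ID3 are highest in the 2 shCNOT3 cultures with DOX, BAMBI is lowest there and highest in shNTC with DOX, and for ID2 the shCNOT3-1 culture with DOX stands apart at 1789.

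The promoters of ID1 and ID3 are shown because these 2 genes were high in the same cultures, that of ID2 because its hairpins differed, and that of BAMBI because it went the other way. The sequences are from RefSeq (GRCh38.p14), 5′ to 3′ on the strand of the gene, from 250 bases before to 50 bases after the start, and all 7 genes had an entry, SMAD7 with 3. Capitals mark matches on either strand to any of 4 motifs. The palindromic SMAD box was searched as GTCTAGAC. The GC-rich element bound by BMP SMADs was searched as GGCGCC. The TATA box was searched as TATAAA, and on the opposite strand its letters are reversed and complemented. The CCAAT box was searched as CCAAT in the same way. ID1 lies at chr20:31605039-31605338 (plus strand), ID3 at chr1:23559452-23559751 (minus strand), ID2 at chr2:8681806-8682105 (plus strand) and BAMBI at chr10:28677271-28677570 (plus strand).
ID1: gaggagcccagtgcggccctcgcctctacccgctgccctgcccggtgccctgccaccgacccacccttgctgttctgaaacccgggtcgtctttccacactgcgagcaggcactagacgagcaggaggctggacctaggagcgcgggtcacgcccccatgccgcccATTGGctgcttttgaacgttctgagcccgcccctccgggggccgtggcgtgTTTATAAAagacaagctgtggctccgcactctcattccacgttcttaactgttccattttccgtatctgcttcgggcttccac
ID3: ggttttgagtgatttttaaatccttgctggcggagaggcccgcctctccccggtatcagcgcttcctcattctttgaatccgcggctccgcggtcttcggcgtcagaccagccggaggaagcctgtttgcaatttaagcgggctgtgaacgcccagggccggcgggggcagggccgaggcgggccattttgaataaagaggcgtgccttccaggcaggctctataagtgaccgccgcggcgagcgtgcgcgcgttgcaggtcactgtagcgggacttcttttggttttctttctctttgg
ID2: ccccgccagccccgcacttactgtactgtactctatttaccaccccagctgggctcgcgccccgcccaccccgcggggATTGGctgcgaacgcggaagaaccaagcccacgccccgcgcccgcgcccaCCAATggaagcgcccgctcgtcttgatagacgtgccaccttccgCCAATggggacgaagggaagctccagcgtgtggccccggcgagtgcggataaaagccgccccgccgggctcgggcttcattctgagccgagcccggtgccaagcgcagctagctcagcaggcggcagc
BAMBI: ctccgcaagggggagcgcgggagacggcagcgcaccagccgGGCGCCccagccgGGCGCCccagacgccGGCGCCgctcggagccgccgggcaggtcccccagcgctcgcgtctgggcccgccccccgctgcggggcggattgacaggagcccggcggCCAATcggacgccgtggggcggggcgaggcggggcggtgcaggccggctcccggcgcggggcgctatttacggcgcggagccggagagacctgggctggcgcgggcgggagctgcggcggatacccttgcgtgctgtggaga

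The windows of ID1 and ID3 had no motif of this search in common, which follows from the ID3 window having none at all. In the ID1 window the TATA box occurred on both strands in overlapping positions, 33 and 31 bases upstream of the start, and the CCAAT box occurred 84 bases upstream on the opposite strand. None of the 4 motifs was found in the ID3 window. The ID2 window had 3 CCAAT boxes, the farthest on the opposite strand, 172, 122 and 78 bases upstream. That of BAMBI had 3 copies of the GC-rich element, 209, 196 and 181 bases upstream, and a CCAAT box at 92 bases. Among the other members SMAD6 held the palindrome GTCTAGAC 12 bases upstream of its start, which 0.202% of 35114 promoters of this length do. The GC-rich element was present in 19.2% of these promoters, the TATA box in 11.5% and the CCAAT box in 34.6%. A match is a run of letters and says nothing of binding in these cells. Elements outside the window, or with other letters, were not searched for.

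ID2 differed between the hairpins. Its intensity was 1789 with and 5265 without DOX in shCNOT3-1, whereas in shCNOT3-2 it was 7246 with and 4758 without. In shNTC it was 7026 with and 5263 without DOX. The shCNOT3-1 knockdown was thus the only one of the 6 arrays below the range of the uninduced cultures, which lay within 1.11-fold of each other, and the other 2 DOX cultures were the highest. ID2 was 2.94-fold lower with DOX in shCNOT3-1 and 1.52-fold higher in shCNOT3-2, so that the mean of the hairpins, -0.47 ± 1.53 on the log2 scale (SD, n = 2), describes neither. The changes of the hairpins were 2.16 apart on the log2 scale.

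The second ID2 probe set, of a kind that can bind several transcripts, read 236 with and 911 without DOX in shCNOT3-1, 1306 with and 1716 without in shCNOT3-2, and 1595 with and 881 without in shNTC. Here too ID2 was lowest in the shCNOT3-1 knockdown, at 25.9% of the level without DOX, but shCNOT3-2 was slightly lower with DOX (log2 -0.39) where the first probe set had it higher. A further probe set is assigned to both ID2 and ID2B and so is outside the count of 15. It gave -0.97 in shCNOT3-1, -0.26 in shCNOT3-2 and 0.47 in shNTC. All of these probe sets were lower in shCNOT3-1 and higher in shNTC with DOX, and for shCNOT3-2 they disagreed in sign.

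ID4 was near the limit of what the arrays resolved. Its brightest probe set had 103 with and 107 without DOX in shCNOT3-1, 80.7 with and 139 without in shCNOT3-2, and 88.4 with and 125 without in shNTC, only a little above the level of 61.4 under which genes were left out as too dim. A second one had 59.9 with and 77.3 without DOX in shCNOT3-1, 49.8 with and 104 without in shCNOT3-2, and 92.6 with and 74.6 without in shNTC. Both were lowest in the shCNOT3-2 knockdown. The 2 knockdown arrays were below the other 4 in the second probe set and overlapped with them in the first. The 3 remaining ID4 probe sets were below the filter, with intensities of 11.1 to 41.6, 1.43 to 45.7 and 1.54 to 37.4, and no direction is read from them.

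Of the feedback genes, BAMBI was lower in both knockdown cultures. The intensity of BAMBI was 948 with and 1437 without DOX in shCNOT3-1, 600 with and 1365 without in shCNOT3-2, and 2461 with and 1327 without in shNTC. The knockdown arrays were the 2 lowest and the induced control culture was by far the highest, while the 3 uninduced cultures lay within 1.08-fold of each other. BAMBI was 1.52-fold lower in shCNOT3-1 and 2.27-fold lower in shCNOT3-2, or -0.89 ± 0.41 on the log2 scale (SD, n = 2). In shNTC it was 1.85-fold higher (0.89). The mean of the hairpins minus the shNTC change was -1.78 on the log2 scale, made up about equally of lower values in the knockdown lines and the higher value in shNTC.

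SMAD7, like BAMBI, was highest in the induced control culture, with smaller differences. Its single probe set read 285 with and 323 without DOX in shCNOT3-1, 250 with and 285 without in shCNOT3-2, and 507 with and 331 without in shNTC. Both knockdown lines had a log2 change of -0.18, less than the 1.16-fold span of the uninduced cultures, and the value that stood apart was that of shNTC with DOX, 1.53-fold above the same line without it. SMAD7 overlapped between the groups, since the shCNOT3-1 knockdown read as high as uninduced shCNOT3-2. For both genes the high control value comes from 1 array, which has no repeat.

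SMAD6 gave no common direction. Its brightest probe set had 1625 with and 1378 without DOX in shCNOT3-1, 1343 with and 1689 without in shCNOT3-2, and 1952 with and 2070 without in shNTC. The shNTC line was the highest in both states, and log2 DOX changes were 0.24 in shCNOT3-1, -0.33 in shCNOT3-2 and -0.085 in shNTC. Other SMAD6 probe sets were dim and differed in direction. One gave -0.36 and 0.06 in shCNOT3-1 and shCNOT3-2 but 2.39 in shNTC, where the uninduced array read 25.4 and all others 106 to 163, and another gave -0.03 in shCNOT3-1, 1.11 in shCNOT3-2 and 0.16 in shNTC. The last was below the filter at 3.70 to 12.7.

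**Figure D2:**
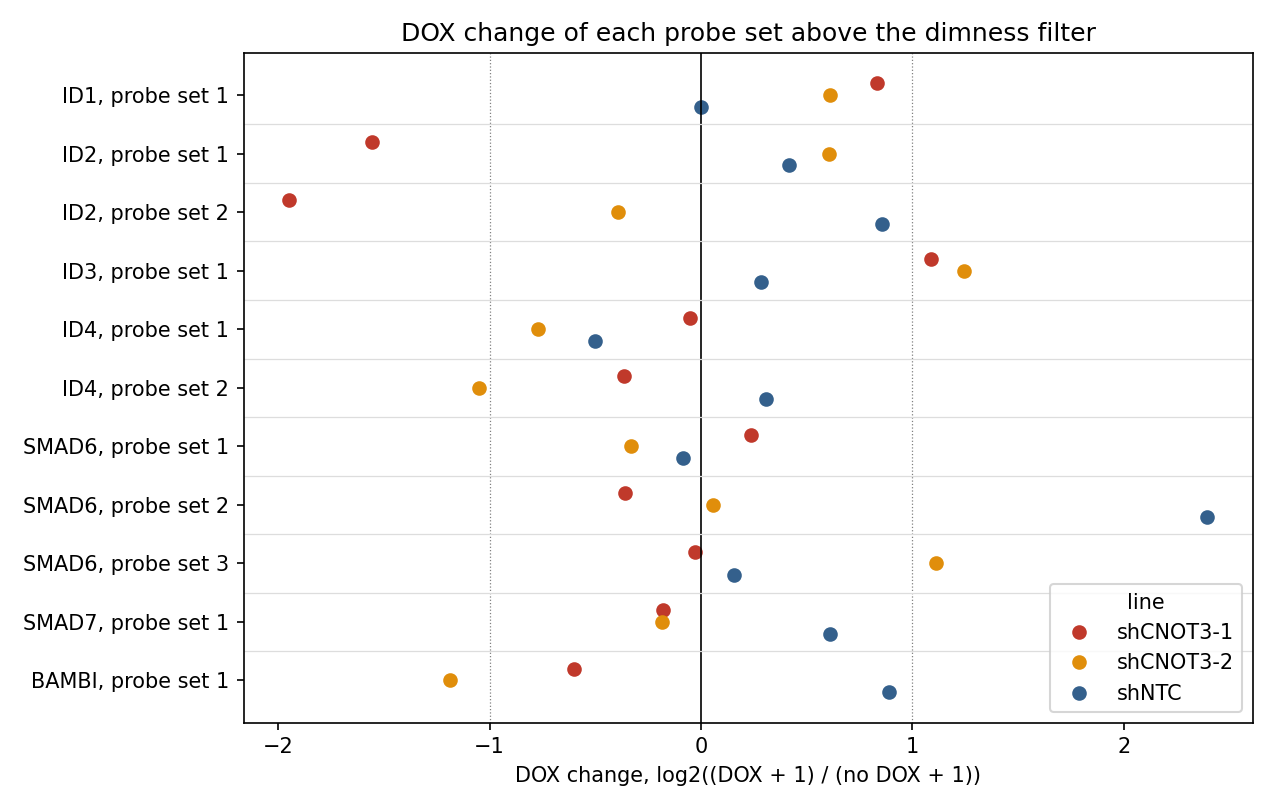
DOX change (log2) of the 11 probe sets of the 7 genes that lay above the dimness filter, 1 point per stable line; dotted lines mark a 2-fold difference in either direction. ID3 is past the upper line in both shCNOT3 lines, ID2 is past the lower line in shCNOT3-1 in both probe sets, BAMBI and the second ID4 probe set are past it in shCNOT3-2, and the SMAD6 probe sets scatter.

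All 7 members were among the 12630 genes bright enough to test, whose values are set beside theirs here. Since the DOX contrast was the one on which the group was selected, nothing is read from these counts. At least a 2-fold difference in either direction was seen in shCNOT3-1 for 2 of the 7, ID2 and ID3, where 6.86% of all tested genes had one. In shCNOT3-2 it was seen for 2, ID3 and BAMBI, against 6.46% of all genes, and in shNTC for none, against 4.01%. In shCNOT3-1 the 5th to 95th percentile of all changes ran from -0.86 to 0.86, in shCNOT3-2 from -0.815 to 0.87 and in shNTC from -0.72 to 0.66. ID3 lay outside that range in both knockdown lines, ID2 in shCNOT3-1 and BAMBI in shCNOT3-2 and, on the other side, in shNTC. ID1 lay inside it in all lines.

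Both knockdown arrays stood above the 4 others for 2 members, ID1 and ID3, and the same held for 16% of all tested genes. Both stood below for 1 member, BAMBI, against 12.8% of genes. Of the 7 members 3 were higher with DOX in each knockdown line and 5 in shNTC, ID1 among them with 16899 against 16889, while 54.5%, 51.8% and 48.8% of all tested genes were higher in shCNOT3-1, shCNOT3-2 and shNTC. The median log2 change of the 4 ID genes was 0.39 in shCNOT3-1, 0.61 in shCNOT3-2 and 0.14 in shNTC, and that of the 3 feedback genes was -0.18, -0.33 and 0.61. Over all tested genes these medians were 0.05, 0.02 and -0.01.

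Without DOX the lines were close in the brightest probe sets of ID1, ID2, ID3, SMAD7 and BAMBI, within the spans of 1.08-fold to 1.24-fold given above. The second ID2 probe set spanned 1.95-fold, at 911 in shCNOT3-1, 1716 in shCNOT3-2 and 881 in shNTC. ID4 spanned 1.29-fold. SMAD6 was farther apart, at 1378 in shCNOT3-1 and 2070 in shNTC, with shCNOT3-2 between them at 1689.

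Tests were run across all genes and are read here only for genes that are not members. In limma, with the line as a block, 28 genes or 0.222% of those tested were past the threshold of 0.05 for the adjusted p of the knockdown. That fit takes the mean of the hairpins and does not subtract the shNTC change. It called 57 genes without shNTC, 39 without shCNOT3-1 and 62 without shCNOT3-2, and in the last 2 cases the knockdown rests on 1 pair of arrays and shNTC alone gives the spread. For a difference between the responses of the hairpins no gene passed in limma (0%, with 810 at an unadjusted p under 0.05, or 6.41%). That fit left 1 residual degree of freedom, so a missing call does not show that the hairpins acted alike. For a difference in level among the 3 lines, over arrays with and without DOX, no gene passed in limma either (0%, with 596 at an unadjusted p under 0.05, or 4.72%).

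The rest of the pathway was taken from 9 lists of 96 genes, of which 67 were bright enough to test. None passed in limma for the knockdown, for the hairpins or for the lines. At an unadjusted p under 0.05 for the knockdown there were 12, 6 higher and 6 lower, or 17.9% of the 67 against 14.5% of all tested genes. Medians of the 67 were -0.01 in shCNOT3-1, 0.07 in shCNOT3-2 and 0.15 in shNTC, where those of all tested genes were 0.05, 0.02 and -0.01. By direction, 32, 39 and 43 of the 67 were higher with DOX in shCNOT3-1, shCNOT3-2 and shNTC. Estimates below are the mean log2 change of the hairpins with the SE of the model, and other probe sets are given for some of the genes only.

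Among ligands, 6 of 12 on the array were tested and 0 passed. BMP7 read 203 with and 149 without DOX in shCNOT3-1, 174 with and 55.1 without in shCNOT3-2, and 161 with and 101 without in shNTC, so that all lines were higher with DOX. Its estimate was 1.04 ± 0.42 (limma, adjusted p = 0.301), and its other probe sets gave 0.31, 0.16 and, at the lowest intensities, 3.04. BMP4 gave 0.03 in shCNOT3-1 and -0.76 in shCNOT3-2. BMP6 gave 0.39 ± 0.29 and BMP5 -0.43 ± 0.45.

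Among receptors and coreceptors 8 of 9 were tested and 0 passed. BMPR1B, a type I receptor, read 996 with and 1962 without DOX in shCNOT3-1, 1380 with and 1798 without in shCNOT3-2, and 2244 with and 2239 without in shNTC. The knockdown arrays were the 2 lowest for this gene (-0.68 ± 0.21, unadjusted p = 0.00852, adjusted p = 0.198), and its other probe sets gave -0.75 and -0.42 as the mean of the hairpins. The coreceptor RGMA gave 0.91 ± 0.48 but -1.25 in a dimmer probe set. ACVR2A and ENG gave 0.43 ± 0.28 and 0.30 ± 0.44. For the type II receptor BMPR2 the hairpins were opposite, at -0.92 in shCNOT3-1 and 0.34 in shCNOT3-2.

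Of the SMADs that carry the BMP signal 3 of 4 were tested and 0 passed. SMAD5 read 979 with and 2053 without DOX in shCNOT3-1, 1427 with and 2112 without in shCNOT3-2, and 1852 with and 1763 without in shNTC. It had the lowest p of the 67 genes in limma, with an estimate of -0.82 ± 0.20 (adjusted p = 0.124). Its probe sets disagreed, with -0.94 from a second and -0.11, 0.25 and 0.01 from 3 others. SMAD1 gave -0.01 ± 0.20, and SMAD4, the common partner, -0.32 ± 0.21 with -0.36 in shNTC. SMAD9 was too dim.

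Extracellular antagonists, which bind BMPs and keep them from receptors, were tested for 5 of 12 and 0 passed. Noggin (NOG) gave 0.54 ± 0.59 with 1.64 in shNTC, and TWSG1 gave -0.35 ± 0.18. Follistatin (FST), which binds activins and some BMPs, read 166 with and 240 without DOX in shCNOT3-1, 702 with and 344 without in shCNOT3-2, and 728 with and 524 without in shNTC. As for the brightest ID2 probe set, the shCNOT3-1 knockdown was the lowest of the 6 arrays and the other DOX cultures the highest. Another FST probe set had this order too. In a dimmer one shCNOT3-1 was lowest with DOX, at 57.8, but highest of all arrays without it, at 162. FSTL3 gave 0.20 ± 0.20.

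Of ubiquitin ligases and corepressors of SMADs 9 of 10 were tested and 0 passed. SMURF2, a ligase that SMAD7 brings to receptors, read 1488 with and 1022 without DOX in shCNOT3-1, 1547 with and 1011 without in shCNOT3-2, and 907 with and 992 without in shNTC. The knockdown arrays were the 2 highest (0.58 ± 0.19, adjusted p = 0.227), but other probe sets gave -0.29, 0.49 and -0.38. SKIL, a corepressor that TGF-beta induces, gave -0.14 in shCNOT3-1 and -1.13 in shCNOT3-2. RNF111, a ligase that acts on SMAD7 and SKIL, gave 0.28 ± 0.18, and TGIF2 0.22 ± 0.34.

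Other BMP target genes were tested for 9 of 12 and 0 passed. Medians of the list were 0.34 in shCNOT3-1, 0.19 in shCNOT3-2 and -0.06 in shNTC, where those of all tested genes were 0.05, 0.02 and -0.01. GATA2, a transcription factor, read 410 with and 242 without DOX in shCNOT3-1, 462 with and 259 without in shCNOT3-2, and 300 with and 374 without in shNTC. The homeobox gene MSX1 read 559 with and 345 without DOX in shCNOT3-1, 531 with and 339 without in shCNOT3-2, and 257 with and 239 without in shNTC. Both had the knockdown arrays on top, as ID1 and ID3 did, at 0.79 ± 0.24 (adjusted p = 0.198) and 0.67 ± 0.23 (adjusted p = 0.230). Their other probe sets gave 0.58 and -0.21 for GATA2 and -0.05 for MSX1. RUNX2, a regulator of bone formation, gave 0.78 ± 0.33 (adjusted p = 0.329) and ATOH8 -0.87 ± 0.52, or -1.67 and -0.07 in shCNOT3-1 and shCNOT3-2.

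TGF-beta shares SMAD4, SMAD7 and BAMBI with the BMP branch. Of its ligands, receptors and SMADs 8 of 8 were tested and 0 passed. TGFBR1 was at -0.55 ± 0.19 (limma, adjusted p = 0.235), TGFB3 at 0.50 ± 0.39 and SMAD2 at 0.14 ± 0.17. TGFBR2 was at 0.47 in shCNOT3-1 and -0.84 in shCNOT3-2. Other SMAD2 probe sets disagreed, with 0.14, -0.33, -0.48, -0.59 and -1.24 as the mean of the hairpins. Dimmer probe sets gave 0.80 and -0.25 for TGFBR1, -0.67 for TGFB3 and -1.24 for TGFBR2. Of 11 target genes 0 passed, with COL4A1 at 0.57 ± 0.21, LTBP2 at 0.56 ± 0.32, FN1 at -0.53 ± 0.27 and TAGLN at -0.48 ± 0.66. In shNTC their median was 0.43 with 7 of 11 higher, where the median of all genes was -0.01. CCN2, a matricellular protein, read 3826 with and 1136 without DOX in shNTC, and PMEPA1, which like BAMBI and SMAD7 restrains TGF-beta signalling, 3402 with and 1758 without. FN1, which encodes fibronectin, read 5190 with and 2917 without. In the knockdown lines CCN2 read 478 with and 923 without DOX in shCNOT3-1, and 1870 with and 867 without in shCNOT3-2. The brightest probe set of TAGLN, an actin-binding protein, went the other way in shNTC, at 42.4 with and 224 without DOX, the lowest of the 6 arrays. Its other probe sets did not share this, at 130 with and 48.6 without DOX in shNTC, and 74.0 with and 71.8 without. Both of these were lowest in the shCNOT3-1 knockdown, at 19.6 and 35.3. By brightest probe set, 5 of the 11 genes were highest and 2, TAGLN among them, lowest in the induced shNTC culture. BAMBI and SMAD7 were also highest in that culture. Over all tested genes 20.8% were highest and 20.8% lowest there. The part of this in the values of BAMBI and SMAD7 was not tested.

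**Figure D3:**
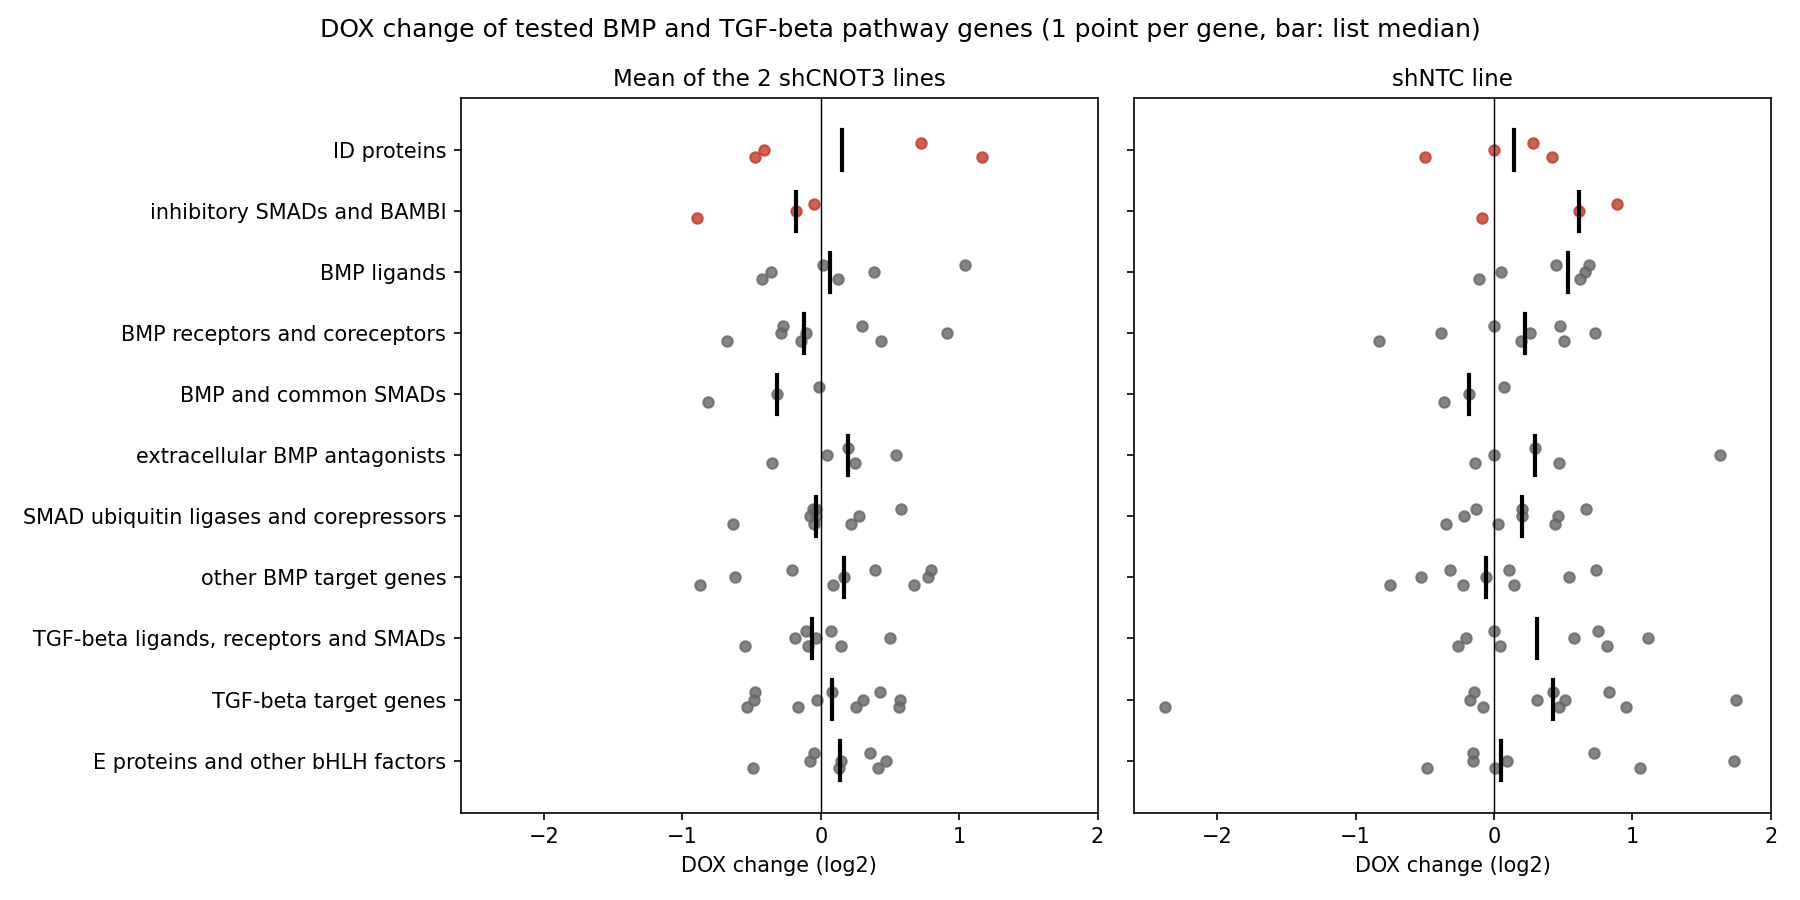
DOX change (log2) of each tested gene in the member groups (red) and the 9 pathway lists (grey), as the mean of the 2 shCNOT3 lines on the left and in the shNTC line on the right; 1 point is 1 gene and the bar is the list median. ID3 is the highest point on the left at 1.17, and the TGF-beta target list has a median of 0.43 in shNTC.

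The partners of the ID proteins were also examined. Of E proteins and other bHLH factors, 8 of 12 were tested and 0 passed. TCF4, an E protein, gave -0.49 ± 0.22 (adjusted p = 0.341), with 0.38 to -0.41 from its other probe sets. TCF3 read 1224 with and 1278 without DOX in shCNOT3-1, 1561 with and 1217 without in shCNOT3-2, and 1455 with and 879 without in shNTC. Its other probe sets disagreed, with 1.94 to -1.43 as the mean of the hairpins. For shCNOT3-1, shCNOT3-2 and shNTC the next brightest gave -0.38, 0.49 and 0.47, and another gave -0.40, -0.92 and -0.53. The third E protein, TCF12, gave -0.10 in shCNOT3-1 and 0.36 in shCNOT3-2. TWIST1, TWIST2 and LYL1 gave 0.47 ± 0.22, 0.42 ± 0.23 and 0.35 ± 0.39, none of them past the threshold. A dimmer TWIST2 probe set had the opposite sign, at -0.49.

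ID1 and ID3, though both high in the knockdown cultures, were not each other's nearest match. Likeness was measured as the root mean square difference between log2 values over the 6 arrays, each gene centred on its own mean. For ID1 the nearest genes were DUSP11 (0.023), SMKR1 (0.065), KIAA1671 (0.076), TTC8 (0.080) and SETD6 (0.082). For ID3 they were SUPT3H (0.10), NR4A1 (0.10), DLGAP1-AS2 (0.10), MICB (0.12) and RHOF (0.12). These values describe 6 arrays from 3 lines and carry no test. Between ID1 and ID3 the difference was 0.29, where the median over all tested genes was 0.40 to ID1 and 0.61 to ID3. ID1 ranked 164 among the genes nearest to ID3, and ID3 ranked 2667 among those nearest to ID1. NR4A1, an immediate early nuclear receptor, read 876 with and 382 without DOX in shCNOT3-1, 667 with and 306 without in shCNOT3-2, and 357 with and 282 without in shNTC.

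**Figure D4:**
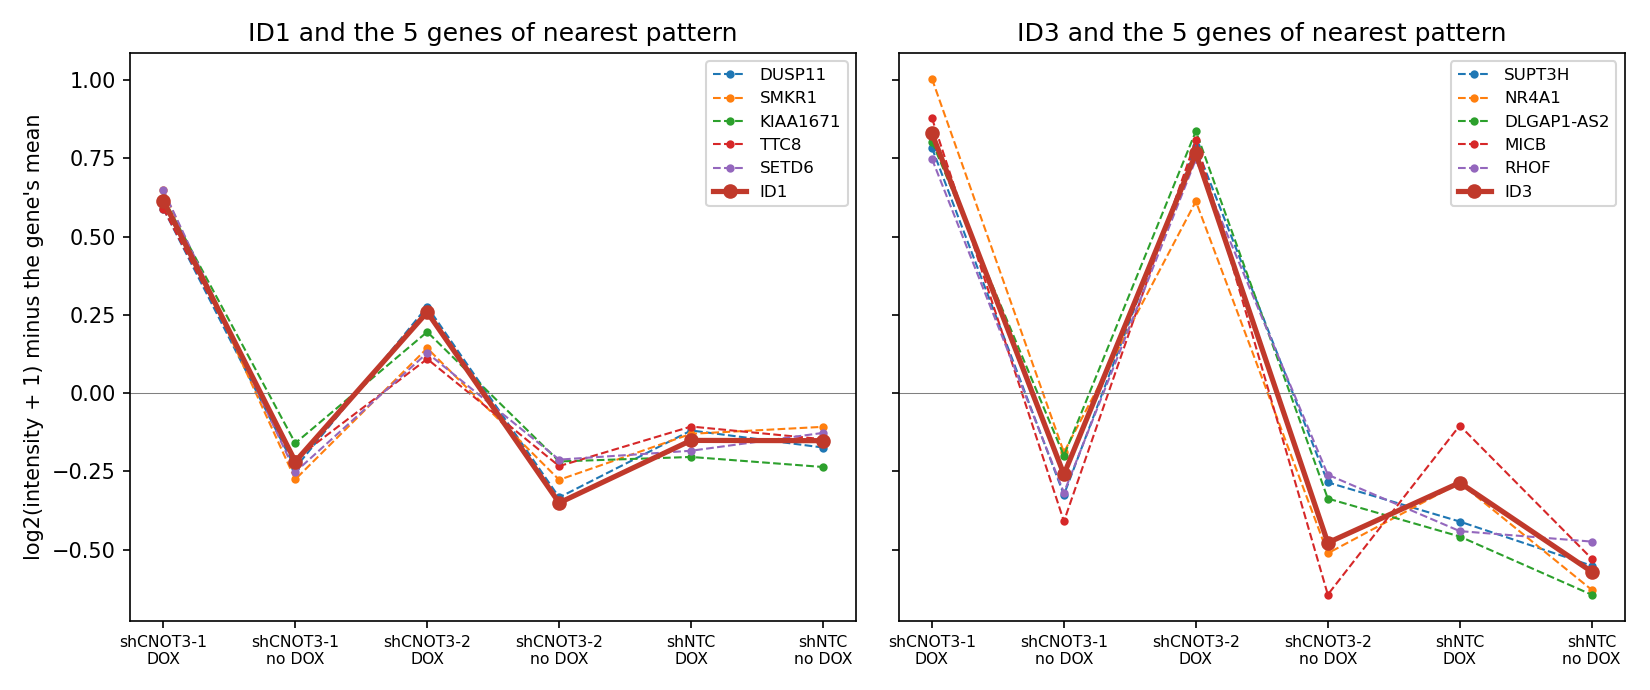
log2(intensity + 1) of ID1 (left) and ID3 (right), drawn bold, and of the 5 genes nearest to each, after subtracting the mean of each gene over the 6 arrays, which run along the horizontal axis. The ID1 profile is higher in shCNOT3-1 with DOX than in shCNOT3-2 with DOX, and the ID3 profile is similar in both.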

How the data were processed

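Affymetrix arrays of 6 cultures (3 lines, each with and without DOX) were analysed. The values deposited by the authors are probe set intensity, not log-transformed. Per the submitters' processing notes they come from MAS5, whose settings no source used here gives. An array has no sequencing depth, and precision here depends on the number of arrays and on the intensity of the gene.

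Genes were named through the platform annotation, updated by RefSeq gene records. From the deposited intensities log2(intensity + 1) was computed, a scale that understates differences of dim genes. Genes with a mean log2 under 5.96 (intensity 61.4), which is the overall probe set median, were left out, and 12630 of 19775 remained. limma 3.58.1 in R 4.3.3 was fitted across the remaining genes with an intensity trend, 2-sided, with Benjamini-Hochberg adjustment at 0.05. The procedure was tested on simulated data. In the knockdown fit the line was a block, with 2 residual degrees of freedom. The pairing is by line, from the labels. No repeat cultures are described, and p-values therefore reflect the spread of these arrays alone, which may be in part technical. In the knockdown fit that spread is the disagreement of the 2 hairpins and the DOX change within shNTC. A response to DOX in the control line is thus counted as spread. Alternatives covered scaling, the added constant, the filter, probe set choice, the variance trend, the block and each line left out.

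The members and the gene lists were chosen with earlier results of these data known. Named genes were the 7 members, CNOT3, per list any gene past the threshold and up to 4 with the largest knockdown estimate, and the 5 genes nearest to ID1 and to ID3. CCN2, PMEPA1, BMPR2, TCF3, TCF12 and the markers KRT8, PTPRC and CDH5 were named after their values were seen, and the count of genes highest or lowest in the induced shNTC culture was added then. Plots were made in Python 3.11.15 with matplotlib 3.10.9.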

Additional observations from a re-analysis of the deposited data

Results flagged for a closer look

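BAMBI and SMAD7 had opposite signs in the knockdown and control lines, with lower signal after DOX for both hairpins against CNOT3 and higher signal for shNTC. The same signs were seen for 13.5% of all tested genes. For SMAD7 the change of -0.18 in each knockdown line was small. The 25th percentile of all tested genes was -0.25 in shCNOT3-1 and -0.27 in shCNOT3-2. The mean of the hairpins minus the shNTC change was -1.78 for BAMBI and -0.79 for SMAD7 on the log2 scale. This difference was not tested, and its shNTC side rests on 1 pair of arrays.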

How the results depend on the processing

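The DOX changes of the members were recomputed with quantile normalization, with 16 added in place of 1, and over all probe sets of a gene averaged. Of 63 such values 53 moved by less than the SD of the hairpins and 10 by more, and no difference of 2-fold or more turned its sign. That count is a loose guide, because averaging could not move ID1, ID3, SMAD7 and BAMBI, which have a single probe set each. The SD also differed widely between genes, at 1.53 for ID2 and 0.0038 for SMAD7. Averaged over its 5 probe sets ID4 gave -1.13, 0.03 and 0.74 in shCNOT3-1, shCNOT3-2 and shNTC, and SMAD6 over its 4 gave 0.35 in shCNOT3-2 and 0.55 in shNTC, so for both genes the sign in these 2 lines depends on the probe sets. The ID3 knockdown estimate was 1.09 to 1.24 under 9 alternatives, and both ends are the changes of single hairpins given above. Probe set averaging could not change the ID3 estimate of 1.17, because ID3 has a single probe set. The filter and the trend do not enter such an estimate, and with the line as a block the shNTC arrays do not either. The count of 28 genes called for knockdown was 3 with no filter on dim genes, 6 with averaged probe sets, 0 with no intensity trend (limma, 1547 at an unadjusted p under 0.05) and 191 with no replicate block. With a line left out it was 39 to 62. The difference between hairpins gave 160 genes with no replicate block and 0 under 5 other alternatives (645 to 1082 unadjusted), and it cannot be fitted with a line left out. The difference between lines gave 0 under 8 alternatives (511 to 959 unadjusted), of which leaving out shNTC was chosen after seeing the data. Near the lowest intensities, where most ID4 probe sets and the dimmest SMAD6 probe set lie, 1 array per culture limits what can be resolved.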
